A study of Homo sapiens with 6 samples.

Results

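The 41 genes described here carry glucose into the cell and down to lactate, or are induced when oxygen is short, or set the level of the hypoxia-inducible factor (HIF). They were chosen by symbol and all 41 were found among the 36932 genes of the table. The group holds 2 glucose transporters, 15 enzymes of the 10 glycolytic steps, 2 regulators of phosphofructokinase, 4 genes of lactate handling, 2 kinases that gate pyruvate, 11 HIF targets outside glycolysis and 5 regulators of HIF. They were measured by RNA-seq in MDA-MB-231, human cells of a triple negative breast cancer, in which DDX18 had been knocked down. DDX18 is a nucleolar helicase with roles in ribosome assembly. There were 2 libraries of colony 1 with DDX18 knocked down, 2 of colony 2 with DDX18 knocked down, and 2 of control cells of the same line. The labels name neither the agent used for the knockdown nor a treatment of the control cells, and the 2 libraries of a colony share that colony. Since no label calls the replicates separate cultures, a p-value here weighs a change against a spread between libraries that may be technical repeats. That spread was pooled over the 3 groups and drawn towards the spread of other genes of similar level.

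Glycolysis splits glucose into pyruvate, and cells with little oxygen, like many tumour cells, turn much of that pyruvate into lactate and export it. HIF is a dimer of an oxygen-labile alpha subunit and a stable beta subunit. In oxygen, prolyl hydroxylases mark the alpha subunit, the von Hippel-Lindau protein has it degraded, and without oxygen it persists and binds a short core motif, ACGTG or GCGTG, near genes such as those of glycolysis. This control acts mostly on the protein, so the mRNA of an alpha subunit does not measure HIF activity.

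DDX18 itself checked the labels. It had 17.6 and 14.04 CPM in colony 1, 14.7 and 15.1 CPM in colony 2 and 78.8 and 91.7 CPM in control, which left 18.02% of the control mean (limma log2 change −2.40, SE 0.11, adjusted p = 3.9e-15). The smallest CPM step of a library implied 8843847 to 11902437 reads, and the members other than SLC16A1 held at least 32 reads in each library, CA9 the fewest. Of 6 mesenchymal markers of such lines, VIM held 1739 to 1803 CPM and AXL 982 to 1097 CPM over the 6 libraries, CD44, MSN and ZEB1 were called higher in knockdown and SPARC lower (limma), and the 6 summed to 4703 to 4864 CPM in knockdown and 4089.7 to 4109 CPM in control. PGR was at 0 in all 6 libraries, and ESR1 and FOXA1 reached at most 0.201 and 0.306 CPM. The 8 luminal breast markers summed to 1101 to 1172 CPM in knockdown and 1665 to 1721 CPM in control, mostly KRT8 and KRT18. The 5 fibroblast markers summed to 25.0 to 32.7 CPM in knockdown and 50.7 to 56.1 CPM in control, nearly all of it COL1A1, LUM and PDGFRB, with DCN and PDGFRA at or near 0. The 6 leukocyte markers summed to 5.95 to 9.13 CPM in knockdown and 7.01 to 8.79 CPM in control. The part of the mesenchymal, luminal and fibroblast markers' shift in the results was not tested. In bulk RNA fewer cells with a transcript and less of it per cell cannot be told apart.

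Stretches of 7 promoters are printed to show where the HIF core motif lies. HK2 and PFKFB3 fell and HIF1A rose in knockdown cells, and for each the whole 250 bases before a RefSeq start are given, from a start whose window overlaps no annotated exon. They lie at chr2:74834920-74835169 (plus strand) for HK2, chr10:6144671-6144920 (plus strand) for PFKFB3 and chr14:61695263-61695512 (plus strand) for HIF1A. ALDOC, LDHA, PGK1 and P4HA1 had some of the largest falls among the members, and for each the 30 bases that held the most matches within the 250 bases before its most upstream start in the RefSeq table are given. These lie at chr17:28577111-28577140 (minus strand) for ALDOC, chr11:18394471-18394500 (plus strand) for LDHA, chrX:78104029-78104058 (plus strand) for PGK1 and chr10:73096935-73096964 (minus strand) for P4HA1. GENCODE 29 also has transcripts that begin further upstream, and the stretches of ALDOC, LDHA and P4HA1 lie wholly in exons annotated there, while that of PGK1 overlaps none. Sequences are 5′ to 3′ along the gene, from RefSeq on GRCh38.p14. Capitals mark ACGTG or GCGTG on either strand, so CACGT and CACGC are the same motifs read on the other strand, and CACGTG counts once on each.
HK2: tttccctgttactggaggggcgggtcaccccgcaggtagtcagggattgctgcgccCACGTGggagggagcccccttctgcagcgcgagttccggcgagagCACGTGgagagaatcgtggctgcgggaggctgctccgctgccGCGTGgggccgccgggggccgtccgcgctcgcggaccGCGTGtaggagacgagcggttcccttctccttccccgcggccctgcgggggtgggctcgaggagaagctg
PFKFB3: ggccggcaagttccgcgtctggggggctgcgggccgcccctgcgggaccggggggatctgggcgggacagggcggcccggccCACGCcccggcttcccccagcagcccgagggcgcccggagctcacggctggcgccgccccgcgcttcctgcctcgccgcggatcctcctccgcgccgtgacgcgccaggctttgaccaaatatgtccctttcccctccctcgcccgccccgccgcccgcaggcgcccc
HIF1A: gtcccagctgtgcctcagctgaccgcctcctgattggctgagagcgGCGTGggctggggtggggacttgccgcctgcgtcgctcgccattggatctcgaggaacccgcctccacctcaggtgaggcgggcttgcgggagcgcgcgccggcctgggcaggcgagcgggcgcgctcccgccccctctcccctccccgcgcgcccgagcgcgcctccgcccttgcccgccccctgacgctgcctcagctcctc
ALDOC: cccggCACGTGgtaaagggattgtggcaga
LDHA: actcaCACGTGggttcccgCACGTccgccg
PGK1: ggttcgcgGCGTGccggACGTGacaaacgg
P4HA1: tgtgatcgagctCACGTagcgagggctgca
Within 250 bases the matches numbered 6 for HK2, 1 for PFKFB3, 1 for HIF1A, 5 for ALDOC, 5 for LDHA, 3 for PGK1 and 1 for P4HA1. A match describes the letters and is not a bound site.

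The RefSeq table gave promoters for 35 of the 41 members, with 63 starts. SLC2A3, SLC16A1, NDRG1, VEGFA, BNIP3L and VHL had no entry. ACGTG on either strand was present in at least 1 window of 20 of the 35 members (57.1%) and of 28.7% of the 10606 tested genes with a promoter. Counted by start, 23 of 63 member windows (36.5%) and 22.2% of the windows of tested genes held it. With either core allowed, 29 of 35 members (82.9%) and 64.5% of tested genes had a match. Of the 25 members with a promoter that were called lower in the comparison with control, 19 held ACGTG (76.0%). Of the 10 members with a promoter that were not called lower, 1 did. Over all tested genes called lower, 29.8% held it, close to the share in all tested genes. Either core was present in 22 of the 25 members called lower (88.0%) and in 7 of the 10 not called lower (70.0%). Among all tested genes called lower, 64.6% had either core. The split follows the threshold for a call and not the direction of change. Among the 10 not called lower, HK1, PFKL, LDHB, CA9, ADM, KDM3A and EGLN3 also had log2 changes below 0, from −0.53 (CA9) to −0.09 (LDHB). The members are known HIF targets in large part, so their motifs are not independent of the choice of members, and no test was made.

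The first comparison set both knockdown colonies against control and asked how the transcripts of the pathway stood after DDX18 was lowered. Transcripts of 13 glycolytic enzymes, of LDHA and SLC16A3 in lactate handling and of 5 HIF targets outside glycolysis were lower in knockdown cells, while BNIP3L, HIF1A and SLC2A1 were higher. The members that fell kept 35.7% to 91.4% of the control mean, with a median of 74.5%. Calls came from limma on log2(CPM + 1) with a Benjamini-Hochberg adjusted p under 0.05, over the 13675 genes whose mean reached 1 CPM. SLC16A1 missed that filter. Of the 40 members tested, 27 fell, 3 rose and 10 were not called, against a background in which 21.5% of tested genes were called lower, 23.2% higher and 44.7% either way. The median log2 change was −0.33 over the 40 members and 0.01 over all tested genes. In 29 members all 4 knockdown libraries lay below both controls, as they did in 25.8% of tested genes. In 3 members they lay above both, as in 27.8% of tested genes, and in 8 the groups overlapped. Neither centring on the median of all genes nor scaling by the upper quartile turned the direction of a tested member in this comparison. Median centring gave 32 members lower and 3 higher, and upper-quartile scaling 31 lower and 3 higher. HK1, PFKL, KDM3A and EGLN3 were called lower under both, and CA9 under median centring.

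**Figure D1:**
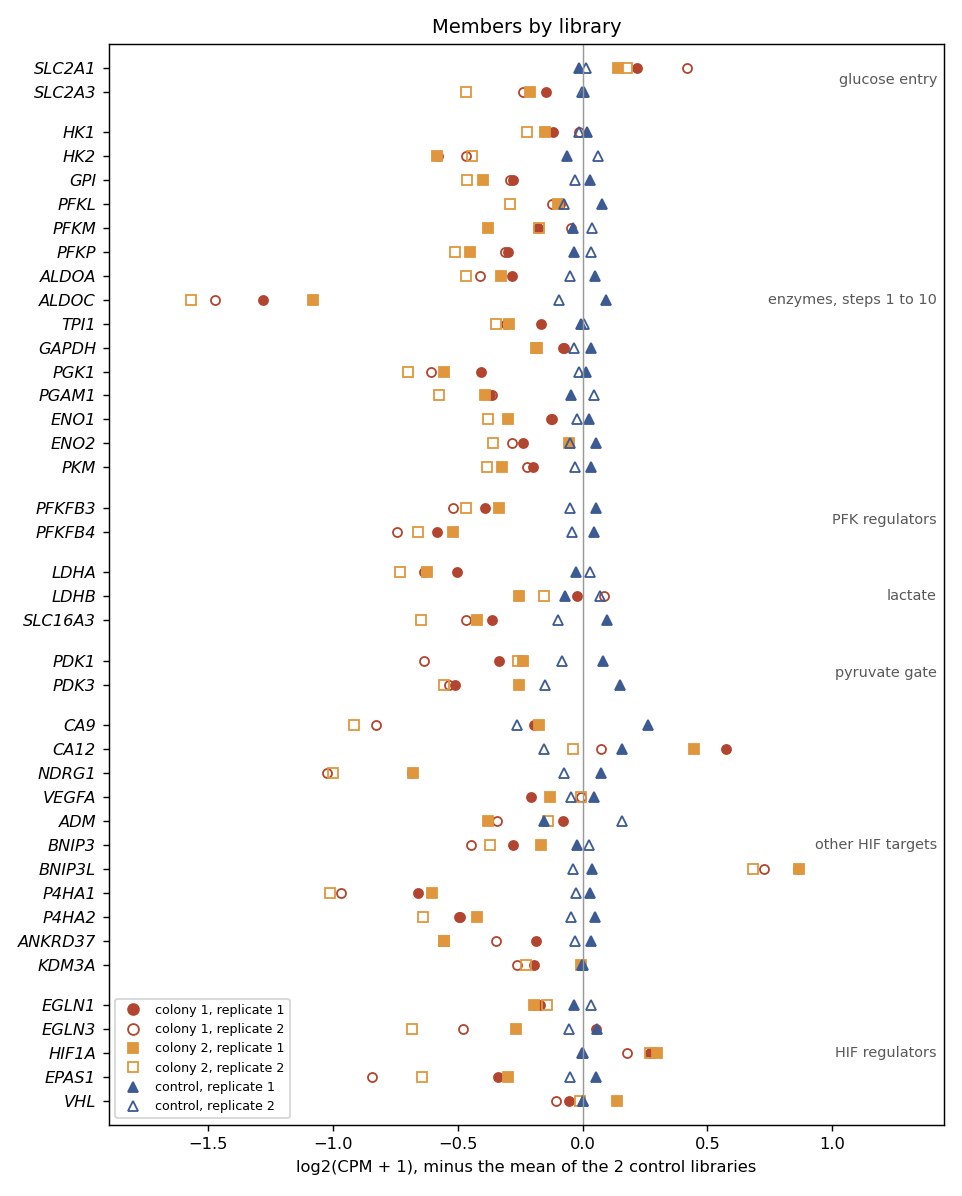
Each of the 40 tested members in each of the 6 libraries, as log2(CPM + 1) minus the mean of the 2 control libraries; circles are colony 1, squares colony 2 and triangles control, filled for replicate 1 and open for replicate 2. In 29 members the 4 knockdown libraries lie left of both controls, and BNIP3L, HIF1A and SLC2A1 lie right of both.

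**Figure D2:**
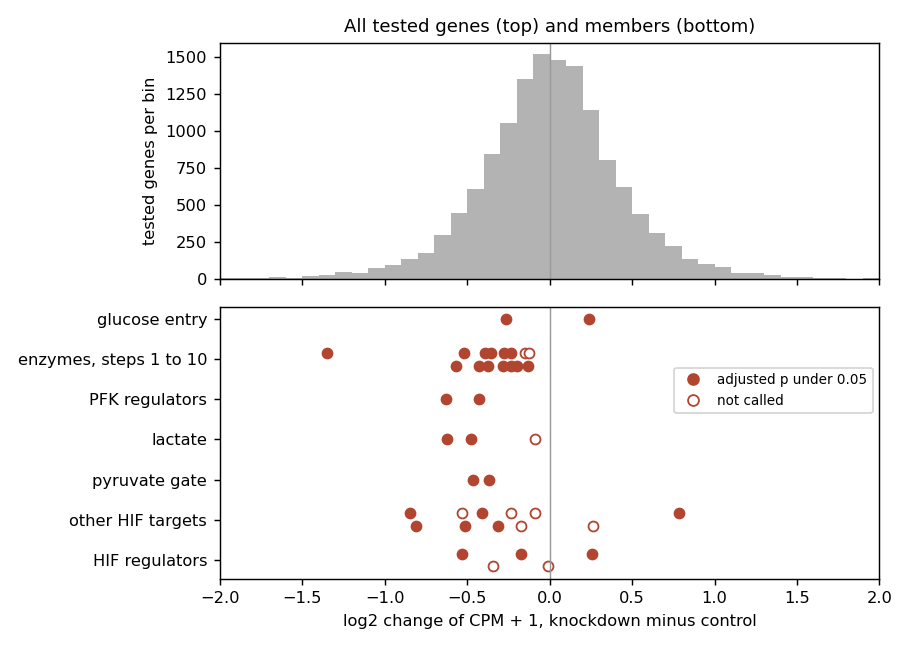
Histogram of the log2 change of CPM + 1, knockdown minus control, over the 13675 tested genes (top) and the 40 tested members by role (bottom; filled where the adjusted p was under 0.05). All 15 enzymes lie left of 0, with ALDOC farthest at −1.35, and BNIP3L stands at 0.78.

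Both glucose transporters were called, in opposite directions. SLC2A1, the basal transporter GLUT1, had 497 and 570.1 CPM in colony 1, 471 and 483 CPM in colony 2 and 423 and 431 CPM in control (log2 change 0.24, SE 0.06, adjusted p = 0.0013). Every knockdown library was above both controls, colony 1 most, and the changes were 0.32 in colony 1 (adjusted p = 3.9e-04) and 0.16 in colony 2 (adjusted p = 0.055). SLC2A3, the high-affinity transporter GLUT3, had 78.9 and 73.8 CPM in colony 1, 75.4 and 62.9 CPM in colony 2 and 87.7 and 87.2 CPM in control (log2 change −0.27, SE 0.08, adjusted p = 0.0066), with all knockdown libraries below both controls. Per kilobase of merged exon, SLC2A3 made up 9.98% of the sum of the pair in knockdown (range 9.04% to 10.9%) and 13.6% in control (13.4% to 13.7%). Neither call held when limma was run without its intensity trend and robust spread (adjusted p = 0.0715 for SLC2A1 and 0.076 for SLC2A3).

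All 15 enzymes of the 10 steps had values below control on average, 13 of them fell and none rose, and in 14 the groups did not overlap. Over all tested genes 21.5% were called lower and 23.2% higher, and in 25.8% all 4 knockdown libraries lay below both controls. Of the 2 enzymes not called, HK1 and PFKL, both had an unadjusted p under 0.05, as all 15 had in the lower direction and 0 in the higher. At that threshold 3433 of the 13675 tested genes were lower and 3591 higher. The median log2 change of the enzymes was −0.28. Together the 15 made up 1.10% to 1.23% of a knockdown library's CPM and 1.38% to 1.43% of a control library's.

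The first steps prime glucose with phosphate. HK2, a hexokinase abundant in tumours, had 80.8 and 87.5 CPM in colony 1, 80.7 and 88.97 CPM in colony 2 and 116 and 127 CPM in control (log2 change −0.52, SE 0.07, adjusted p = 1.3e-06). Its knockdown libraries were all well below the controls and close to each other. HK1, the housekeeping hexokinase, had 248 to 286 CPM in knockdown and 286 to 292 CPM in control, with overlapping groups. Its change was −0.13 (adjusted p = 0.076) for both colonies, with −0.07 in colony 1 (adjusted p = 0.456) and −0.19 in colony 2 (adjusted p = 0.027). HK2 was thus 24.9% of the hexokinase pair per kilobase of merged exon in knockdown (range 23.96% to 27.1%) and 30.4% in control (29.2% to 31.6%). GPI, which turns glucose phosphate into fructose phosphate, had 281 and 278 CPM in colony 1, 258 and 247 CPM in colony 2 and 348 and 334 CPM in control (log2 change −0.36, SE 0.06, adjusted p = 8.9e-06). In both colonies it was lower than in either control.

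Phosphofructokinase commits the sugar to glycolysis. PFKP, the platelet type and most abundant per kilobase of its 3 forms here, had 375 and 371 CPM in colony 1, 337 and 323 CPM in colony 2 and 451 and 472 CPM in control (log2 change −0.39, SE 0.05, adjusted p = 1.4e-06). No knockdown library reached the controls. PFKM, the muscle type, had 59.6 to 75.3 CPM in knockdown and 75.7 to 79.97 CPM in control, a change of −0.20 (adjusted p = 0.043) that was lost with no filter on low values (adjusted p = 0.0711), without limma's trend and robust spread (0.147) and with both colonies as 1 group (0.0899). It was also lost without colony 1 replicate 1 (0.121), colony 2 replicate 1 (0.169), control replicate 1 (0.0613) or control replicate 2 (0.223). PFKL, the liver type, had 184 to 211 CPM in knockdown and 214 to 238 CPM in control, below both controls. Its log2 change of −0.15 for both colonies was not called (adjusted p = 0.061). By colony it was −0.11 in colony 1 (adjusted p = 0.271) and −0.19 in colony 2 (adjusted p = 0.040). SENP1 shares 8.58% of the PFKM exon bases on the other strand and had 23.6 CPM, and since strand handling in the counting is not given, PFKM is uncertain.

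The kinases that tune phosphofructokinase by making its activator both fell. PFKFB3, the strongly kinase-active form, had 90.4 and 82.6 CPM in colony 1, 94.1 and 85.7 CPM in colony 2 and 123 and 115 CPM in control (log2 change −0.43, SE 0.07, adjusted p = 1.8e-05). PFKFB4, another hypoxia-induced form, had 36.1 and 32.2 CPM in colony 1, 37.8 and 34.2 CPM in colony 2 and 56.3 and 52.9 CPM in control (log2 change −0.63, SE 0.09, adjusted p = 3.3e-06). In both genes the highest knockdown library was below the lower control. PFKFB4 was 28.5% of the pair per kilobase in knockdown (range 28.1% to 28.7%) and 31.5% in control (31.3% to 31.6%).

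Aldolase splits the sugar. ALDOC, the form best known from brain, had the lowest level per kilobase among the 15 enzymes and the largest change, with 6.03 and 5.15 CPM in colony 1, 7.09 and 4.76 CPM in colony 2 and 17.3 and 15.01 CPM in control (log2 change −1.35, SE 0.17, adjusted p = 3.0e-07). That was 35.7% of control, and every knockdown library was far below both controls. ALDOC lies at chr17:28573115-28577264 on the minus strand (GRCh38, GENCODE 29), where an antisense gene shares 10.1% of its exon bases. ALDOA, the abundant form, had 832 and 762 CPM in colony 1, 808 and 733 CPM in colony 2 and 1049.9 and 979 CPM in control (log2 change −0.37, SE 0.06, adjusted p = 4.4e-06), with no overlap. An overlapping gene model on the same strand shares 42.3% of the ALDOA exon bases, and how reads shared by both were counted is not given. Because ALDOC was only 0.969% of the aldolase pair per kilobase in knockdown (range 0.860% to 1.16%) and 2.08% in control (2.01% to 2.15%), the aldolase step followed ALDOA.

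In the later steps, which yield energy, the larger changes were at PGK1 and PGAM1. PGK1, the first enzyme to make ATP, had 839 and 729.6 CPM in colony 1, 757 and 684 CPM in colony 2 and 1125 and 1103 CPM in control (log2 change −0.57, SE 0.06, adjusted p = 1.5e-08), 67.6% of control. The knockdown libraries lay clear of the controls. PGAM1, which moves the phosphate within phosphoglycerate, had 342 and 343 CPM in colony 1, 337 and 297 CPM in colony 2 and 428 and 457 CPM in control (log2 change −0.43, SE 0.06, adjusted p = 1.5e-06). TPI1, which interconverts the triose phosphates, had 444 to 504 CPM in knockdown and 563 to 568 CPM in control (log2 change −0.28, SE 0.05, adjusted p = 1.6e-04), and PKM, the pyruvate kinase of most tissues, had 2119.6 to 2408 CPM in knockdown and 2703 to 2826 CPM in control (log2 change −0.28, SE 0.05, adjusted p = 1.4e-05). In neither gene did the groups overlap.

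GAPDH, often taken as a constant reference transcript, had 2222 to 2403 CPM in knockdown and 2470.0 to 2589 CPM in control, without overlap. Its change was −0.13 (adjusted p = 0.021) for both colonies, with −0.08 in colony 1 (adjusted p = 0.266) and −0.18 in colony 2 (adjusted p = 0.0062). The call was lost without limma's trend and robust spread (adjusted p = 0.194), with both colonies as 1 group (0.124), and without colony 2 replicate 1 (0.0582), colony 2 replicate 2 (0.0672) or control replicate 1 (0.278). ENO2, the neuronal enolase, had 101 to 124 CPM in knockdown and 125 to 134 CPM in control, with a change of −0.23 (adjusted p = 0.013) and groups that just missed overlapping. The call was lost without limma's trend and robust spread (adjusted p = 0.130), without colony 2 replicate 2 (0.0919) or control replicate 1 (0.128).

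ENO1, the enolase of most tissues, was the member called different between the colonies. It had 3329 and 3322 CPM in colony 1, 2943 and 2781 CPM in colony 2 and 3683 and 3565 CPM in control (log2 change −0.23, SE 0.04, adjusted p = 1.3e-04). The changes were −0.12 in colony 1 (adjusted p = 0.059) and −0.34 in colony 2 (adjusted p = 7.4e-06), and colony 2 was lower than colony 1 by limma (log2 change −0.22, SE 0.05, adjusted p = 0.020). Both colony 2 libraries were below both colony 1 libraries. That call was lost without trend and robust spread (adjusted p = 0.408), and without colony 1 replicate 2 (0.0507), colony 2 replicate 1 (0.0815) or colony 2 replicate 2 (0.327). Between the colonies 2.28% of tested genes were called, 1.65% lower and 0.629% higher in colony 2, and of the 40 members 1 was lower and none higher. At an unadjusted p under 0.05, 7 members were lower in colony 2 and 1 was higher, beside 1097 lower and 776 higher of the 13675 tested genes.

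By step, levels per kilobase of merged exon were summed over the member forms of a step. They were highest at GAPDH, with 776 ± 33.7 in knockdown against 849 ± 28.3 in control (CPM per kilobase, mean ± SD, n = 4 and 2). Enolase came next, with 612 ± 52.2 in knockdown against 717 ± 17.3 in control, and then pyruvate kinase, with 265 ± 15.7 in knockdown against 323 ± 10.1 in control. Hexokinase, with 56.05 ± 2.64 in knockdown against 65.99 ± 0.523 in control, and GPI, with 24.9 ± 1.53 in knockdown against 31.9 ± 0.950 in control, were lowest. The order of the 10 means was the same in both groups. The neighbours PGK1 and PGAM1 overlapped in knockdown, at 124 to 152 and 116 to 134 CPM per kilobase. The ranking depends on merged exon lengths, which pool all annotated transcripts of a gene. In CPM alone, the control means of ENO1 (3624) and PKM (2765) were above that of GAPDH (2530). As a share of control, knockdown cells kept 67.6% at PGK1, 74.5% at PGAM1, 76.4% at aldolase, 78.0% at GPI, 79.8% at phosphofructokinase, 82.3% at pyruvate kinase, 82.5% at triose phosphate isomerase, 84.9% at hexokinase, 85.4% at enolase and 91.4% at GAPDH. The 10 steps thus differed in size but not in direction, and in each the highest knockdown library was below the lowest control.

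**Figure D3:**
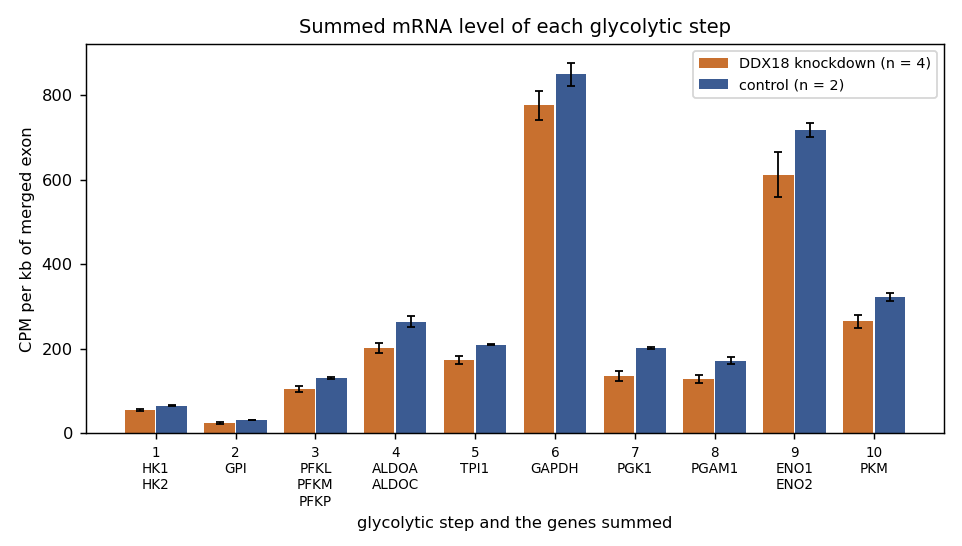
Bars are the mean summed mRNA level of the member forms of each glycolytic step, in CPM per kilobase of merged exon. DDX18 knockdown (n = 4) stands left of control (n = 2), with the SD as error bars. Knockdown is lower at all 10 steps, least at GAPDH (91.4% of control) and most at PGK1 (67.6%).

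Lactate is made by LDHA and, in reverse, used by LDHB. LDHA, at chr11:18394388-18408425 on the plus strand, had 1456 and 1328 CPM in colony 1, 1339 and 1242 CPM in colony 2 and 2025 and 2105 CPM in control (log2 change −0.62, SE 0.05, adjusted p = 2.0e-10). It stood at 64.95% of control, and the gap between the groups was wider than the spread within either. LDHB had 272 to 345 CPM in knockdown and 309.8 to 341 CPM in control, with overlapping groups, and changes of −0.09 (adjusted p = 0.246) for both colonies, 0.03 in colony 1 (adjusted p = 0.753) and −0.21 in colony 2 (adjusted p = 0.019). LDHA made up 67.7% of the pair per kilobase in knockdown (range 64.9% to 70.3%) and 75.3% in control (74.8% to 75.8%). An overlapping gene model on the same strand shares 33.4% of the LDHB exon bases. How reads shared by both were counted is not given, so LDHB and this share are uncertain. Of the lactate carriers, SLC16A3, the exporter MCT4 of glycolytic cells, had 545 and 508 CPM in colony 1, 523 and 448 CPM in colony 2 and 752 and 656 CPM in control (log2 change −0.48, SE 0.06, adjusted p = 2.5e-06), all knockdown libraries below both controls. CSNK1D shares 5.36% of its exon bases on the other strand at 334 CPM. SLC16A1, the carrier MCT1, was barely detected, at 0.30 to 0.90 CPM or 3 to 11 reads a library, too few to compare.

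PDK1 and PDK3 switch off pyruvate dehydrogenase and so keep pyruvate out of mitochondria, and both fell. PDK1 had 50.8 and 41.01 CPM in colony 1, 54.3 and 53.6 CPM in colony 2 and 68.1 and 60.8 CPM in control (log2 change −0.37, SE 0.09, adjusted p = 0.0013). PDK3 had 9.05 and 8.89 CPM in colony 1, 11.00 and 8.76 CPM in colony 2 and 14.9 and 11.9 CPM in control (log2 change −0.46, SE 0.15, adjusted p = 0.014). No knockdown library reached either control. Each was called in colony 1 but not in colony 2, where the changes were −0.25 (adjusted p = 0.054) for PDK1 and −0.41 (adjusted p = 0.064) for PDK3, and the colonies were not called different. PDK3 was lost without colony 2 replicate 2 (adjusted p = 0.0556) or control replicate 1 (0.229).

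**Figure D4:**
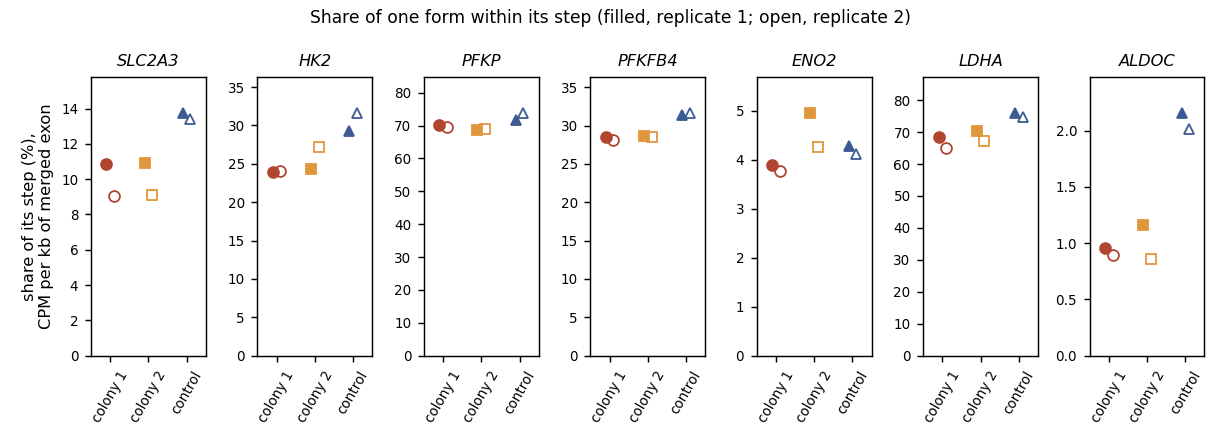
Share of 1 form in the summed CPM per kilobase of the member forms of its step, in percent, for each library (circles colony 1, squares colony 2, triangles control, filled replicate 1, open replicate 2). LDHA, HK2, SLC2A3, PFKP, PFKFB4 and ALDOC are lower in every knockdown library than in both controls, and ENO2 overlaps, at 4.22% in knockdown and 4.21% in control.

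Of the 11 HIF targets outside glycolysis, 5 fell, 1 rose and 5 were not called, beside 21.5% of all tested genes called lower and 23.2% higher, and their median log2 change was −0.32. NDRG1, a stress-induced growth regulator at chr8:133237171-133302022 on the minus strand, had 373 and 294 CPM in colony 1, 373 and 299 CPM in colony 2 and 629.7 and 569 CPM in control (log2 change −0.85, SE 0.12, adjusted p = 0.0012). Every knockdown library was below both controls, and replicate 1 was above replicate 2 in all 3 groups. Without control replicate 1 the change was −0.77 (adjusted p = 0.0503). P4HA1, a subunit of the enzyme that hydroxylates collagen, had 97.7 and 78.8 CPM in colony 1, 102 and 76.3 CPM in colony 2 and 158 and 152 CPM in control (log2 change −0.81, SE 0.11, adjusted p = 6.3e-05). P4HA2, its sister subunit, had 65.5 and 65.2 CPM in colony 1, 68.6 and 58.9 CPM in colony 2 and 95.5 and 89.3 CPM in control (log2 change −0.51, SE 0.08, adjusted p = 4.7e-06). In both genes the highest knockdown library was below the lower control. ANKRD37, an ankyrin repeat protein, had 13.6 and 12.02 CPM in colony 1, 10.3 and 10.3 CPM in colony 2 and 15.9 and 15.2 CPM in control (log2 change −0.41, SE 0.13, adjusted p = 0.014), and its call was lost without control replicate 1 (adjusted p = 0.102) or control replicate 2 (0.0504). UFSP2 overlaps 35.2% of its exon bases on the other strand and had 26.7 CPM, so ANKRD37 is uncertain.

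The related mitophagy receptors BNIP3 and BNIP3L, which mark mitochondria for removal, moved in opposite directions. BNIP3 had 217 and 194 CPM in colony 1, 235 and 204 CPM in colony 2 and 259 and 269 CPM in control (log2 change −0.32, SE 0.07, adjusted p = 3.2e-04). BNIP3L, at chr8:26382898-26505636 on the plus strand, had 152 and 138 CPM in colony 1, 152 and 134 CPM in colony 2 and 85.2 and 80.7 CPM in control (log2 change 0.78, SE 0.07, adjusted p = 8.4e-10), 1.73-fold the control. The 4 BNIP3L values in knockdown were all well above both controls, and those of BNIP3 were all below. PNMA2 shares 7.66% of the BNIP3L exon bases on the other strand and had 57.3 CPM.

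The other 5 targets were not called. CA9, a carbonic anhydrase of hypoxic tumours, was low, with 6.33 and 3.74 CPM in colony 1, 6.44 and 3.46 CPM in colony 2 and 9.09 and 6.01 CPM in control, and its change was −0.53 (adjusted p = 0.059). ARHGEF39 overlaps 38.5% of its exon bases on the other strand at 32.2 CPM, so CA9 is uncertain. CA12, a related carbonic anhydrase, had 50.98 and 35.8 CPM in colony 1, 46.6 and 32.97 CPM in colony 2 and 37.9 and 30.3 CPM in control, a log2 change of 0.26 (adjusted p = 0.269), on the side opposite to most targets. For both genes replicate 1 was above replicate 2 in all 3 groups, and the groups overlapped. VEGFA, the angiogenic growth factor, had 180.5 to 208 CPM in knockdown and 202 to 215 CPM in control, a log2 change of −0.09 (adjusted p = 0.287). ADM, the vasodilator peptide adrenomedullin, had 13.8 to 17.2 CPM in knockdown and 16.2 to 20.4 CPM in control, a log2 change of −0.24 (adjusted p = 0.157). KDM3A, a histone demethylase, had 75.96 to 91.01 CPM in knockdown and 91.4 to 91.5 CPM in control, a log2 change of −0.17 (adjusted p = 0.058). By colony KDM3A was called lower in colony 1 (−0.23, adjusted p = 0.034) and not in colony 2 (−0.12, adjusted p = 0.291). CA9, CA12 and KDM3A were called when some single libraries were left out, for example CA9 without control replicate 2 (−0.79, adjusted p = 0.0226) and CA12 without colony 1 replicate 2 (0.39, adjusted p = 0.0152).

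Of the 5 regulators of HIF, 2 fell, 1 rose and 2 were not called, beside 21.5% of all tested genes called lower and 23.2% higher. HIF1A, an alpha subunit of HIF at chr14:61695513-61748259 on the plus strand, had 513 and 482 CPM in colony 1, 522 and 513 CPM in colony 2 and 425 and 426 CPM in control (log2 change 0.25, SE 0.05, adjusted p = 3.2e-04). It was thus higher in every knockdown library than in both controls, opposite to the 5 HIF targets that fell, with changes of 0.22 in colony 1 (adjusted p = 0.0047) and 0.28 in colony 2 (adjusted p = 5.5e-04). HIF1A-AS1 shares 2.27% of its exon bases on the other strand and had 68.6 CPM. EPAS1, another alpha subunit, had 98.7 and 69.4 CPM in colony 1, 101 and 79.8 CPM in colony 2 and 129.9 and 121 CPM in control (log2 change −0.53, SE 0.16, adjusted p = 0.033). All knockdown libraries were below the controls, but they spread widely, with replicate 1 above replicate 2 in each group, and the call was lost without control replicate 1 (adjusted p = 0.321), control replicate 2 (0.247) or limma's trend and robust spread (0.0509). VHL, whose protein has hydroxylated HIF alpha degraded, had 71.7 and 69.2 CPM in colony 1, 82.1 and 73.9 CPM in colony 2 and 74.6 and 74.6 CPM in control. The groups overlapped, with a change of −0.01 (adjusted p = 0.932).

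Of the HIF prolyl hydroxylases, EGLN1 and EGLN3 are themselves HIF targets. EGLN1, the main one in oxygen, had 104 to 108 CPM in knockdown and 116 to 122 CPM in control, a log2 change of −0.18 (adjusted p = 0.030). It was lost with no filter on low values (adjusted p = 0.0576), without trend and robust spread (0.102), with both colonies as 1 group (0.0575), and without colony 1 replicate 2 (0.0650), colony 2 replicate 1 (0.0793) or control replicate 2 (0.196). EGLN3, the form most induced by hypoxia, had 13.9 to 23.9 CPM in knockdown and 22.1 to 24.01 CPM in control, a log2 change of −0.34 (adjusted p = 0.052). Its groups overlapped through colony 1 replicate 1. By colony EGLN3 was called lower in colony 2 (−0.48, adjusted p = 0.023) and not in colony 1 (−0.21, adjusted p = 0.324). EGLN2, another HIF prolyl hydroxylase, had 8.43 to 11.7 CPM in knockdown and 6.31 to 8.07 CPM in control (log2 change 0.43, adjusted p = 0.035).

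**Figure D5:**
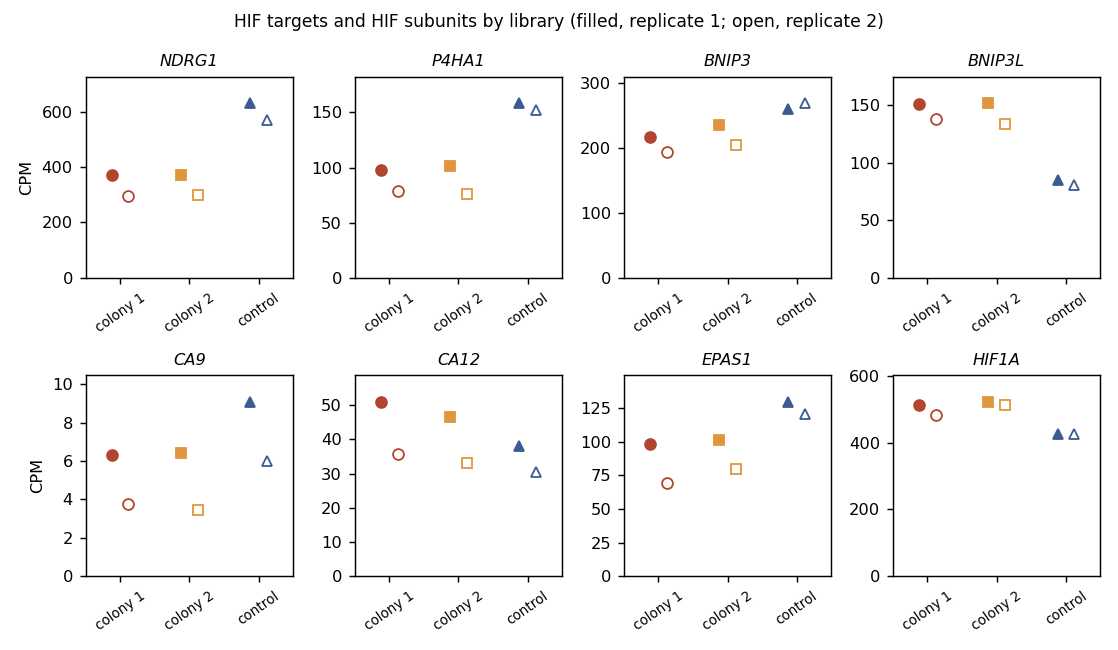
CPM of 8 HIF targets and HIF alpha subunits in each library, by colony 1, colony 2 and control (filled replicate 1, open replicate 2). NDRG1, P4HA1, BNIP3 and EPAS1 are lower and BNIP3L and HIF1A higher in all 4 knockdown libraries than in both controls, while CA9 and CA12 overlap.

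The colonies were also set against the same 2 controls one at a time, so their results share those controls. In colony 1, 22 of the 40 members fell and 3 rose, with a median log2 change of −0.26, where 18.3% of tested genes were called lower and 21.1% higher (39.3% either way). In colony 2, 26 fell and 2 rose, with a median of −0.35, where 19.8% were called lower and 20.5% higher (40.3% either way). Of the enzymes, 10 of 15 fell in colony 1 and 14 of 15 in colony 2, and none rose in either. At an unadjusted p under 0.05 these were 11 and 15 lower and 0 higher. Of the 13675 tested genes, 3047 were then lower and 3362 higher in colony 1, and 3245 lower and 3304 higher in colony 2. Members called lower in both colonies numbered 17, in colony 1 only 5 and in colony 2 only 9. ENO1 was the sole member for which the difference between the colonies was itself called.

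Further genes of the pathway came from lists of the same processes. Of 31 other HIF targets, 30 were tested, of which 16 fell and 2 rose, beside 21.5% and 23.2% of all tested genes, with a median log2 change of −0.34. TMEM45A, a transmembrane protein, had 4.11 to 5.35 CPM in knockdown and 13.6 to 14.4 CPM in control (log2 change −1.44, SE 0.17, adjusted p = 9.6e-08), and PPFIA4, a liprin, had 15.1 to 25.6 CPM in knockdown and 40.04 to 51.4 CPM in control (log2 change −1.25, SE 0.19, adjusted p = 3.8e-04). The groups did not overlap in either gene.

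Of 18 further genes of HIF control, 17 were tested, of which 5 fell and 3 rose, with a median of −0.04. With 8 of 17 called this list was near the 44.7% of all tested genes called either way. CITED2, which competes with HIF alpha for its coactivators and is induced by HIF, had 129 and 120.0 CPM in colony 1, 121 and 116 CPM in colony 2 and 312 and 294 CPM in control (log2 change −1.31, SE 0.06, adjusted p = 6.2e-15). ARNT, the beta subunit of HIF, had 42.03 and 42.02 CPM in colony 1, 41.9 and 45.1 CPM in colony 2 and 78.4 and 68.96 CPM in control (log2 change −0.77, SE 0.08, adjusted p = 3.0e-08). Its relative ARNT2 had 56.4 and 49.2 CPM in colony 1, 51.01 and 43.6 CPM in colony 2 and 32.9 and 31.5 CPM in control (log2 change 0.61, SE 0.09, adjusted p = 5.2e-06). Thus CITED2 and ARNT were lower and ARNT2 higher in every knockdown library than in both controls, with the 2 colonies close together.

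Of 22 further genes of glucose uptake and glycolysis, such as tissue-restricted forms of the enzymes, 14 were tested, of which 4 fell and 3 rose, with a median of −0.21. With 7 of 14 called this list too was near the share in all tested genes, 21.5% lower and 23.2% higher. SLC2A12, the transporter GLUT12, had 9.08 to 12.1 CPM in knockdown and 25.7 to 28.4 CPM in control (log2 change −1.29, SE 0.14, adjusted p = 2.0e-08). TIGAR, a phosphatase that slows glycolysis, had 6.81 to 8.96 CPM in knockdown and 3.58 to 6.51 CPM in control (log2 change 0.59, SE 0.19, adjusted p = 0.013), with the groups apart in both genes.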

How the data were processed

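Messenger RNA of MDA-MB-231 cells was sequenced in 6 libraries, 2 each of DDX18 knockdown colony 1, colony 2 and control. The deposited values were CPM, which the authors computed from reads per gene. Per the submitters' processing notes, Trim Galore trimmed the reads, HISAT2 aligned them, and the builds named were hg38 and mm10. How reads were counted, on which annotation, with what strand handling and library scaling is not given in the sources used here. Of 52142 rows, 15200 without a symbol (2.50% to 2.62% of CPM) and 10 sharing 5 symbols were left out, which kept 36932 genes.

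The 13675 genes whose mean reached 1 CPM were fitted on log2(CPM + 1) with limma 3.58.1 in R 4.3.3 (trend and robust, 3 groups, no covariate), two-sided, with Benjamini-Hochberg adjustment over all tested genes. The pseudocount makes changes of low genes smaller than their CPM ratios. The fit was tested on simulated data first. All values were whole multiples of a smallest step, which gave the implied reads, but count tests were not run because the unit was CPM. Positions, overlaps and merged exon lengths came from GENCODE 29 on GRCh38, and promoters from RefSeq. Alternatives were pseudocounts of 0.1 and 5, no filter and a filter at 10 CPM, median centring, upper-quartile scaling, limma without trend and robust spread, both colonies as 1 group, a replicate block, and each library left out. Values of every library were given for members called with a change of at least 0.3 on the log2 scale, called between colonies or against their role's direction, and for HIF1A, EPAS1 and VHL. The 41 members and the 6 other lists were chosen with earlier results of these data known. From each list the 2 called genes with the largest change and the largest opposite one were named, and others were chosen after their values were seen. The result of 1 gene that this rule takes is not reported here.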

Additional observations from a re-analysis of the deposited data

Results flagged for a closer look

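ENO1 was the member whose change from control differed between the knockdown colonies by the test of the difference itself. The log2 change of colony 2 minus colony 1 was −0.2169 (limma, adjusted p = 0.020), with 2943 and 2781 CPM in colony 2 against 3329 and 3322 CPM in colony 1, both colony 2 libraries being lower. The call was lost without colony 2 replicate 2 (adjusted p = 0.327) and without limma's trend and robust spread (0.408), and over all alternatives run the adjusted p ranged between 8.7e-06 with the replicate block and 0.408. The groups of 2 libraries were too small for a check of single libraries that stand apart.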

How the results depend on the processing

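Of the 30 members called in knockdown minus control, 20 kept their call and direction under all 15 alternatives run. Leaving out 1 library gave 20 to 28 members lower, 3 to 4 higher and 4763 to 5950 of all genes called. For colony 1 the ranges were 16 to 24, 2 to 4 and 3943 to 5310, and for colony 2 they were 20 to 29, 2 to 3 and 3895 to 5613. For colony 2 minus colony 1 they were 0 to 2 members lower, 0 higher, and 137 to 455 genes against 312 in all, with 170 without colony 1 replicate 2, 137 without colony 2 replicate 1 and 167 without colony 2 replicate 2, each of which left no member called, and 2 members lower without control replicate 1 and also without control replicate 2. Without limma's trend and robust spread, 1 member was higher in colony 1 (3 in the reported fit), and for colony 2 minus colony 1 no member and 0 genes were called, with 2 members and 1605 genes at an unadjusted p under 0.05. Replicate numbers are shared between groups, but the labels tie them to no batch and each comparison has 2 pairs. With the replicate number as a block, 32 members were lower and 4 higher among 7070 genes called for both colonies. HK1 (adjusted p = 0.0151), PFKL (0.00573), CA9 (0.00863), KDM3A (0.0127) and EGLN3 (0.00655) were then called lower and CA12 (0.00557) higher. The block gave 26 and 4 among 6398 for colony 1, 32 and 3 among 6570 for colony 2, and 5 and 0 among 1036 for colony 2 minus colony 1. The difference of replicate 1 minus replicate 2 correlated over genes between groups at r = 0.119 to 0.159, and replicate 1 was above replicate 2 in all 3 groups for 25 of 40 members (62.5%) and 18.3% of tested genes. Directions turned for members not called in the comparison concerned. With single libraries left out, VHL ranged over −0.0467 to 0.0282 for both colonies and −0.0121 to 0.1376 for colony 2, CA12 over −0.0393 to 0.4476 for colony 2, and in colony 1 LDHB ranged over −0.0377 to 0.101 and EGLN3 over −0.4781 to 0.0523. LDHB in colony 1 was −0.0198 under median centring. The cause of these changes was not tested. The count tests of edgeR and DESeq2 were planned and not run. SLC16A1 was below the depth needed to compare it.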

Other observations

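The branches that leave glycolysis were described by lists of the same kind. Of the 7 pentose phosphate genes, all tested, 5 rose and none fell (at an unadjusted p under 0.05, 5 higher and 0 lower), with a median log2 change of 0.28 against 0.01 over all tested genes, of which 23.2% were called higher, 21.5% lower and 44.7% either way. RPIA, which makes ribose phosphate for nucleotides, had 23.2 and 28.9 CPM in colony 1, 22.7 and 21.6 CPM in colony 2 and 8.48 and 8.51 CPM in control (log2 change 1.39, SE 0.12, adjusted p = 9.6e-10). Its knockdown values were all far above both controls. PGLS, of the oxidative branch, had 69.2 to 80.5 CPM in knockdown and 58.95 to 59.1 CPM in control (log2 change 0.32, SE 0.08, adjusted p = 0.0014).

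Of 14 genes of glycogen and gluconeogenesis, 12 were tested, of which 6 fell and none rose, with a median of −0.20. The 6 of 12 called were all lower, beside 21.5% of all tested genes called lower, 23.2% higher and 44.7% either way. All 12 had a log2 change below 0. At an unadjusted p under 0.05 the list had 6 lower and 0 higher, and the 13675 tested genes had 3433 lower and 3591 higher. PYGL, the liver type of glycogen phosphorylase, had 92.1 and 119 CPM in colony 1, 93.5 and 95.9 CPM in colony 2 and 175 and 199 CPM in control (log2 change −0.90, SE 0.08, adjusted p = 1.3e-08). GYS1, the muscle type of glycogen synthase, had 66.8 and 63.6 CPM in colony 1, 80.7 and 63.2 CPM in colony 2 and 118 and 109 CPM in control (log2 change −0.73, SE 0.08, adjusted p = 1.2e-07). Both were lower in all 4 knockdown libraries than in either control. Of 26 genes of pyruvate entry and the citric acid cycle, all tested, 9 fell and 3 rose, with a median of −0.13. The 12 of 26 called were near the 44.7% of all tested genes called either way, 21.5% lower and 23.2% higher. PDHB, a subunit of pyruvate dehydrogenase, had 97.1 to 128 CPM in knockdown and 145 to 157 CPM in control (log2 change −0.41, SE 0.07, adjusted p = 1.0e-05) and was lower in colony 2 than in colony 1 (log2 change −0.34, adjusted p = 0.0099). SUCLG2, of succinyl-CoA ligase, had 79.5 to 90.2 CPM in knockdown and 57.6 to 64.6 CPM in control (log2 change 0.47, SE 0.07, adjusted p = 9.8e-06). Among the genes of HIF control, ELOB, HSP90AB1 and RBX1 were also lower in colony 2 than in colony 1 (log2 changes −0.40, −0.25 and −1.05, adjusted p = 0.0018, 0.024 and 0.017 by limma), chosen for mention after their values were seen, RBX1 on 14 to 59 reads a library.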
